A study of Mus musculus with 139 samples.

Results

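Whole-lung gene expression was compared between 8 mice that had received 80 µg of multi-walled carbon nanotubes (MWCNT) and 7 mice that had received 120 µg of crocidolite asbestos, both 12 months after exposure by pharyngeal aspiration. These 15 mice were chosen by treatment, dose and time as the labels state them, out of 138 mice in 18 groups, and the comparison covers the 22180 genes whose array feature is paired with a single gene symbol. All mice were males of a strain written C57BL/J6 in the labels, 7 weeks old when bought. The control group was 8 mice given the carrier, dispersion medium (DM), and studied at the same time. The carbon nanotube and asbestos groups differ in material and in mass, so a difference between them cannot be told apart into one and the other. The mice are numbered separately in the labels, so each value comes from a separate animal; within a group they are called here by a replicate number in order of deposition.

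Carbon nanotubes and crocidolite are both thin, durable fibres. Macrophages that take them up clear them slowly, and fibres that stay in the lung are known to keep up inflammation, scarring, mucous change of the airway lining and an acute-phase response. Acute-phase proteins are made mostly in the liver, but airway and alveolar epithelium can also make some of them, together with secreted proteins that bind microbes. Type 2 cytokines such as IL-13 drive goblet cells, mucins and chitinase-like proteins, while macrophages loaded with fibres or surfactant lipid raise lysosomal genes.

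The tissue was lung by its markers. Sftpc, the surfactant protein C gene of type 2 alveolar cells, lay between 12.38 and 12.69 on the log2 scale in all 15 exposed mice, and Scgb1a1, the club cell secretoglobin gene, between 12.57 and 12.78. The mean log2 level of 14 type 1 alveolar genes ran from 7.96 to 9.58 with MWCNT (median 9.42). It ran from 9.32 to 9.40 with crocidolite and from 8.22 to 9.67 with DM, so the MWCNT and DM ranges reached lower. Of these 14 genes, 0 passed the test between the fibres given below, where 0.978% of all genes did. MWCNT mice 1 and 5 stood apart in genes of other tissues. Krt4, a keratin of squamous epithelium such as that of the oesophagus, was at 11.46 and 12.02 in them, against at most 3.46 in the other MWCNT mice and at most 4.60 with crocidolite. Acta1, the skeletal muscle actin gene, was at 10.04 and 10.64 in the same mice, and at most 4.31 in the other MWCNT mice. Counts of genes called between the fibres at 12 months are therefore also given without these mice, where that changes them, an alternative chosen after seeing the data. The word "replacement" stands in the titles of 5 of the 8 MWCNT arrays and 5 of the 7 crocidolite arrays, and the labels do not say what it means.

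At 12 months, 217 genes differed between the fibres, 0.978% of those tested (limma, Benjamini-Hochberg adjusted p under 0.05, two-sided). Of these, 184 were higher with crocidolite (0.83%) and 33 were higher with MWCNT (0.149%). All 39 called genes that differed by at least 1 on the log2 scale were higher with crocidolite. The largest was Dmbt1, at 17.0-fold, while the largest fold in the other direction was 1.83, for Kcna1. Both genes were near the lowest signals on the arrays in the group where they were low, where folds can be understated. The median difference of all genes, crocidolite minus MWCNT, was -0.005. Quantile normalization gave 301 genes, of which 67.8% were higher with crocidolite, and centring each array on its median gave 70.0%, against 84.8% in the values as deposited. Without MWCNT mice 1 and 5, 128 genes were called, 110 of them higher with crocidolite. A fit of the groups compared alone called 67, 61 of them higher with crocidolite. Calls near the threshold ended under some of the 27 alternatives (28 settings in all): C3ar1 passed in 12, Ctsk, Bub1b and Thbd in 14, Il1a and Il7r in 15, C6 and Lamp3 in 17, Gclc, Popdc2, Il13ra1 and Sdc1 in 18 and Ednrb in 19. Within the arrays whose titles hold the word replacement 71 genes were called, 69 higher with crocidolite, and within the others (3 MWCNT and 2 crocidolite mice) 483, of which 225 were higher with crocidolite. Of the 217 genes, 59 were among the 71 and only 44 were among the 483. In these subsets Dmbt1 differed by 4.02 and 4.35, Gp2 by 3.56 and 2.37 and Fgg by 2.97 and 2.23, all past the test, and Fga by 2.47 and 0.78, the latter not past it (adjusted p = 0.292).

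**Figure D1:**
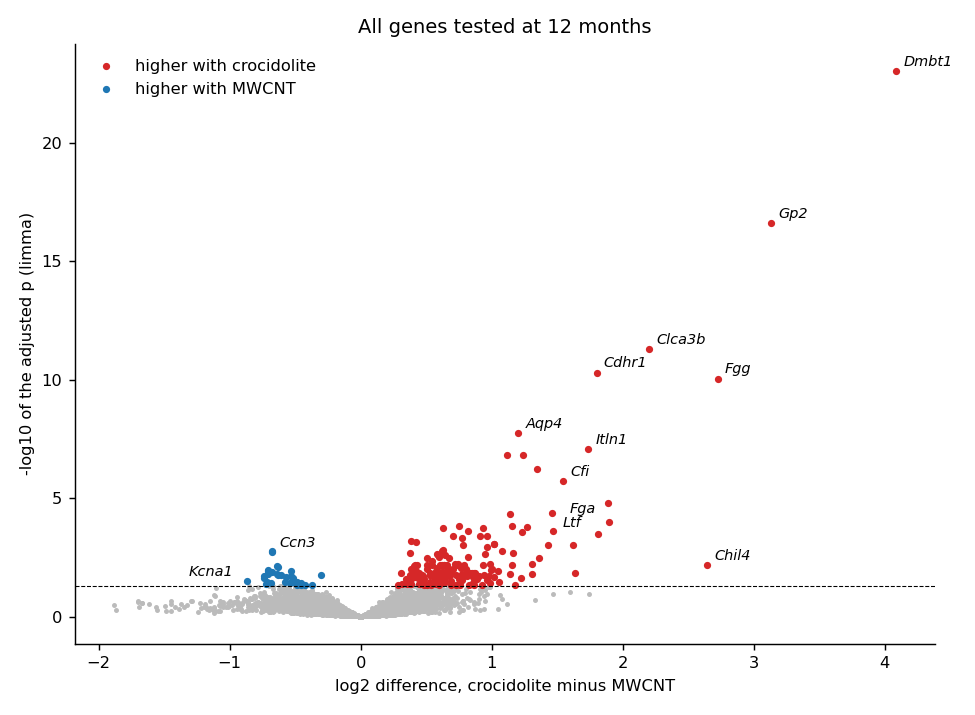
Each point is a gene; the x axis is the log2 difference at 12 months, crocidolite minus MWCNT, and the y axis is -log10 of the limma adjusted p, with the dashed line at 0.05. The 184 red genes reach 4.09 for Dmbt1, whereas the 33 blue genes, higher with MWCNT, end at -0.87 for Kcna1.

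The list of acute-phase and antimicrobial proteins held Dmbt1, Gp2 and Fgg, the genes with the largest differences. Of its 19 measured genes, 8 were higher with crocidolite, 0 were higher with MWCNT and the median difference was 0.63, where 0.83% of all genes were higher with crocidolite and the median was -0.005. Without MWCNT mice 1 and 5 the count was 7. The mean log2 level of the list was 5.77 to 6.84 in the MWCNT mice, 7.03 to 7.40 with crocidolite and 5.48 to 5.69 with DM. The ranges of the exposed groups did not overlap. This list and those below were chosen with earlier results of these data known. Their counts and levels are descriptions, not tests.

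Dmbt1 encodes a secreted scavenger receptor glycoprotein of mucosal surfaces. Its log2 level was 2.03 at the lowest, 3.0 at the median and 3.60 at the highest with MWCNT, against 5.91, 7.14 and 7.85 with crocidolite and 2.28, 2.58 and 3.35 with DM. Every crocidolite mouse was above every MWCNT mouse, and the MWCNT mice lay in the range of the DM mice or close to it. The difference was 4.09 ± 0.29 (SE; adjusted p = 9.55e-24). Gp2 encodes a membrane glycoprotein that binds bacterial fimbriae. It was at 3.65, 4.21 and 6.12 with MWCNT, 7.10, 7.59 and 8.02 with crocidolite, and 2.66, 3.39 and 3.70 with DM. The exposed groups were again separate, and MWCNT mouse 8 was the one nearest to crocidolite. The difference was 3.13 ± 0.27 (adjusted p = 2.54e-17). Against DM, Gp2 was also higher with MWCNT, by 1.14 (adjusted p = 0.023), while Dmbt1 was 0.28 above DM (adjusted p = 0.77).

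Ltf encodes lactotransferrin, an iron-binding antimicrobial protein of airway secretions. Its lowest, median and highest levels were 7.10, 7.52 and 8.57 with MWCNT, 9.22, 9.54 and 9.79 with crocidolite, and 5.84, 7.20 and 8.0 with DM. The groups did not overlap and differed by 1.81 ± 0.34 (adjusted p = 0.000326). Reg3g, an antibacterial lectin gene, ran from 6.11 to 8.72 with MWCNT and from 8.78 to 9.28 with crocidolite, a difference of 1.31 ± 0.32 (adjusted p = 0.0163). The highest MWCNT mouse and the lowest crocidolite mouse were close, without overlap. Itih4, an acute-phase inhibitor chain, and Lrg1, an acute-phase glycoprotein, were chosen after their values were seen. They were higher with crocidolite by 1.24 ± 0.17 and 1.23 ± 0.23 (adjusted p = 1.59e-07 and 0.000269), each with no overlap. Saa3, the serum amyloid A gene expressed in lung macrophages and epithelium, did not pass: it ran from 4.19 to 7.31 with MWCNT, with mouse 8 at the top, and from 5.33 to 7.61 with crocidolite (adjusted p = 0.192). Lcn2, which encodes a siderophore-binding protein, ran from 8.99 to 10.52 and from 9.98 to 10.74 (adjusted p = 0.186).

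**Figure D2:**
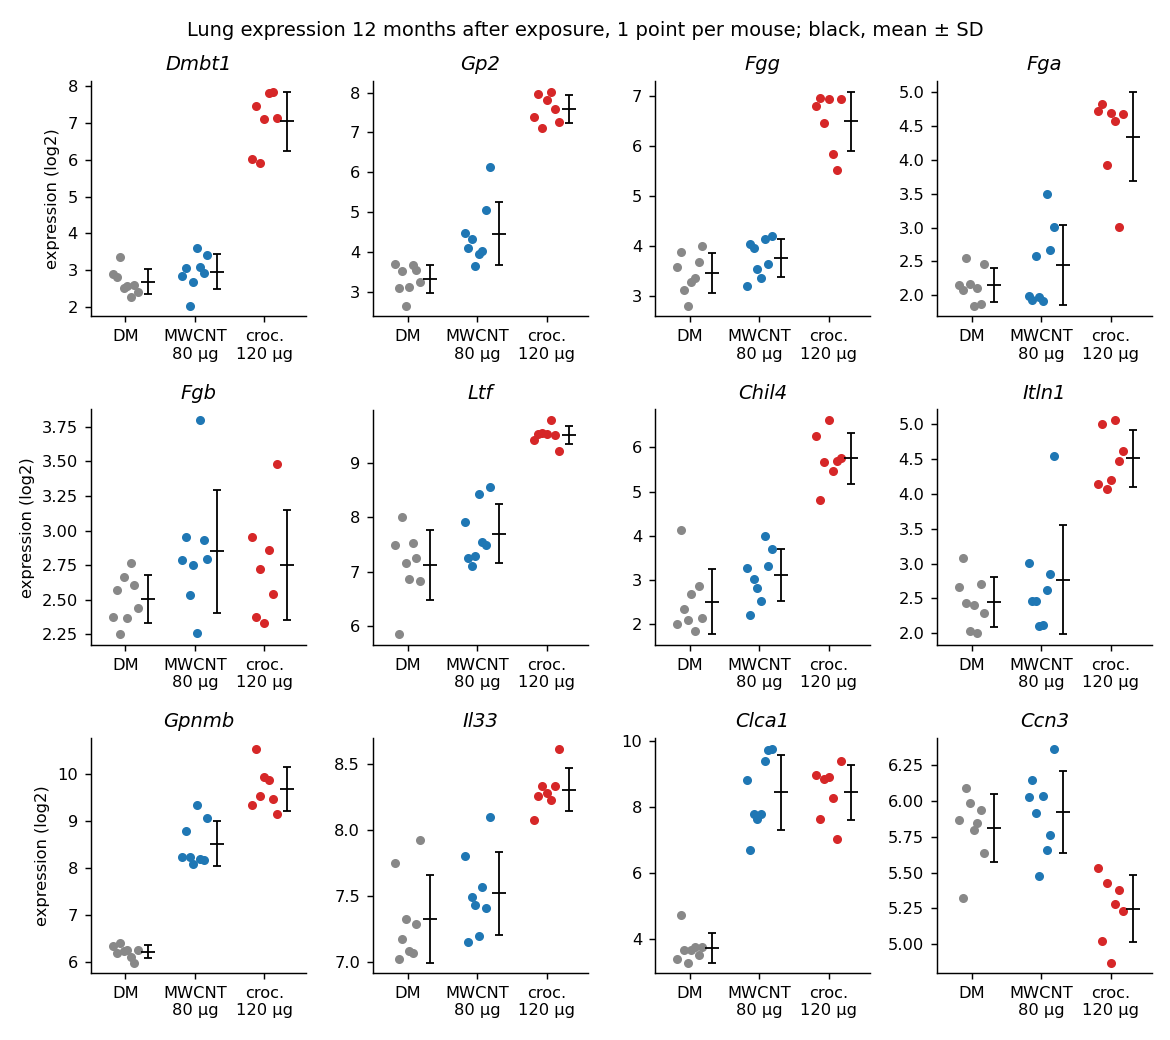
Log2 expression of 12 genes at 12 months, a point for each mouse given DM (grey), 80 µg MWCNT (blue) or 120 µg crocidolite (red), with the mean and SD of each group in black; each panel has its own y axis, which does not start at 0. Dmbt1, Gp2, Fgg, Ltf and Chil4 show no overlap between the fibres, Fgb and Clca1 do, and Ccn3 is lower with crocidolite.

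Fibrinogen, the clotting protein, is built from 3 chains whose genes stand side by side on mouse chromosome 3. The starts of Fgg and Fga, for the gamma and alpha chains, are 18.4 kb apart, and Fgb, for the beta chain, starts a further 23.7 kb away on the opposite strand. The 250 bases before each start are shown because the chains did not move together. They come from RefSeq (GRCm38.p6), at chr3:83007474-83007723 (plus strand) for Fgg, chr3:83025903-83026152 (plus) for Fga and chr3:83049864-83050113 (minus) for Fgb. Capitals mark matches, on either strand, to CTGGGAA (the core of IL-6 response elements), TTCNNNGAA (a STAT core) or TTGCNNAA (a C/EBP core).
Fgg: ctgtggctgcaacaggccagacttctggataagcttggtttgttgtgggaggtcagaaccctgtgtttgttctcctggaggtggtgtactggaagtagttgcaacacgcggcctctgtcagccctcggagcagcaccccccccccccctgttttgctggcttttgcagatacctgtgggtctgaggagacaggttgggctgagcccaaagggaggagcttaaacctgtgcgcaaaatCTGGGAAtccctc
Fga: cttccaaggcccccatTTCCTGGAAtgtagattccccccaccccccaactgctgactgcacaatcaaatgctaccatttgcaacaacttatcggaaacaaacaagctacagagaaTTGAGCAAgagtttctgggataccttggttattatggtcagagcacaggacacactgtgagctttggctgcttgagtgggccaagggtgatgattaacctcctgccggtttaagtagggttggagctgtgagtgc
Fgb: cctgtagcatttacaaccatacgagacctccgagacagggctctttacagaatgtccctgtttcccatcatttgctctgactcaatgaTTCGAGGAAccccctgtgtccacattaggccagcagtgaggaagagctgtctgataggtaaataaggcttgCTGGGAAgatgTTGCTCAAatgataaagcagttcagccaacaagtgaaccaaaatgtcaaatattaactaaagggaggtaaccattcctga

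In these windows CTGGGAA is found once for Fgg and once for Fgb, TTCNNNGAA once for Fga and once for Fgb, and TTGCNNAA once for Fga and once for Fgb. No marked matches overlap. Over 27025 promoter windows of the same length, 9.08%, 7.18% and 9.55% hold them. A match is a description of letters, not of a bound site.

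Fgg was at 3.21, 3.81 and 4.20 (lowest, median, highest) with MWCNT, 5.53, 6.80 and 6.96 with crocidolite, and 2.81, 3.47 and 4.01 with DM. The MWCNT mice overlapped the DM mice and every crocidolite mouse was above them, with a difference of 2.73 ± 0.32 (adjusted p = 8.97e-11). Fga was at 1.91, 2.29 and 3.49 with MWCNT, 3.0, 4.67 and 4.83 with crocidolite, and 1.85, 2.13 and 2.55 with DM. Here 6 of 7 crocidolite mice were above all MWCNT mice, and the difference was 1.90 ± 0.33 (adjusted p = 0.000104). Fgb, chosen after its values were seen, was at 2.26, 2.79 and 3.80 with MWCNT, 2.33, 2.72 and 3.48 with crocidolite, and 2.25, 2.51 and 2.77 with DM. The groups overlapped throughout. The difference was -0.10, with a 95% interval from -0.86 to 0.66 (adjusted p = 0.937).

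The Fgb feature did reach a high value elsewhere in the series. It was at 8.48 in a mouse given 10 µg MWCNT at 12 months, where Fgg was at 8.36, Fga at 7.59 and Alb, the albumin gene of liver cells, at 11.54. The next highest Fgb values were 5.86 and 4.77 in DM mice at 1 month and 4.81 in a mouse given 1 µg MWCNT at 12 months. In the same order, Fgg was at 5.28, 4.62 and 4.67 and Alb at 9.68, 9.0 and 8.74. In the mice compared here Alb ran from 4.14 to 8.40 with MWCNT and from 4.43 to 8.40 with crocidolite, with medians of 5.10 in each group, and differed by 0.26 ± 0.65 (adjusted p = 0.897). Thus 2 of the 3 fibrinogen chains were higher with crocidolite while Fgb and Alb did not pass the test.

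Other proteins of the clotting and complement cascades were also among the genes higher with crocidolite. Proz encodes protein Z, and Serpina10 encodes the inhibitor of clotting factor Xa that uses protein Z as its cofactor; both were chosen after their values were seen. Proz was at 4.52, 4.83 and 6.01 with MWCNT and 5.56, 6.05 and 6.72 with crocidolite, and the overlap came from MWCNT mouse 8 alone. The difference was 1.14 ± 0.19 (adjusted p = 4.66e-05). Serpina10 was at 2.97, 3.57 and 3.85 with MWCNT and 4.26, 4.56 and 5.55 with crocidolite, with no overlap and a difference of 1.16 ± 0.21 (adjusted p = 0.000158).

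Of 13 measured complement genes, 3 were higher with crocidolite and 0 with MWCNT, against 0.83% and 0.149% of all genes. The median difference of the list was 0.37. Cfi, for the protease factor I that inactivates C3b and C4b, was at 2.76, 3.07 and 3.40 with MWCNT and 4.15, 4.70 and 5.24 with crocidolite. The groups did not overlap, and the difference was 1.54 ± 0.23 (adjusted p = 1.92e-06). C3ar1, the C3a receptor gene, and C6, for a terminal component, differed by 0.73 ± 0.20 and 0.45 ± 0.12 (adjusted p = 0.0447 and 0.0224). Without MWCNT mice 1 and 5, 1 complement gene passed, as it did without MWCNT mouse 2 or 5 or crocidolite mouse 2 or 6, and 5 passed without MWCNT mouse 8.

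The goblet cell gene Clca1 was high with both fibres, while some other mucous cell genes were higher with crocidolite. Clca1, a goblet cell gene induced by IL-13, was at 6.70, 8.29 and 9.76 with MWCNT, 7.04, 8.86 and 9.39 with crocidolite, and 3.30, 3.69 and 4.75 with DM. The exposed groups overlapped throughout and both lay above the DM mice. The difference was -0.00 ± 0.66, with a 95% interval from -1.30 to 1.29 (adjusted p = 0.999), so a difference of up to about 1.3 in either direction could still be present. Clca3b, a relative of Clca1, was at 2.14, 2.94 and 3.27 with MWCNT, 4.59, 5.02 and 6.02 with crocidolite, and 2.35, 2.67 and 3.27 with DM. It separated the fibres in every mouse, by 2.20 ± 0.24 (adjusted p = 5.21e-12), and the MWCNT mice overlapped the DM mice.

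Of 16 measured mucous cell genes, 4 were higher with crocidolite and 0 with MWCNT, against 0.83% and 0.149% of all genes. The means of 11 of the 16 were higher with crocidolite. The median difference was 0.40, and 3 passed without MWCNT mice 1 and 5. Muc5ac, the inducible gel-forming mucin, ran from 3.59 to 5.50 with MWCNT and from 5.71 to 6.15 with crocidolite, a difference of 1.43 ± 0.28 (adjusted p = 0.000956). The groups did not overlap. Agr2, for a disulphide isomerase that folds mucins, differed by 1.36 ± 0.29 (adjusted p = 0.00352), also with no overlap. Itln1, for intelectin, which binds microbial sugars, had medians of 2.54 with MWCNT and 4.47 with crocidolite and differed by 1.74 ± 0.24 (adjusted p = 8.4e-08). Its overlap was due to MWCNT mouse 8, at 4.54. Muc5b, the mucin of resting airways, differed by 0.73 ± 0.18 (adjusted p = 0.0178), and only 1 crocidolite mouse was above all MWCNT mice. Over the arrays without the word replacement (3 MWCNT and 2 crocidolite), Muc5b was 0.215 higher with MWCNT. Scgb3a1, an airway secretoglobin gene, was at 8.40, 9.20 and 10.10 with MWCNT and 10.48, 10.61 and 10.92 with crocidolite. It had no overlap and differed by 1.46 ± 0.24 (adjusted p = 4.18e-05), whereas the other 12 measured club cell genes did not pass.

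Genes linked to type 2 immunity followed a mixed pattern, with 3 of 18 higher with crocidolite, 0 with MWCNT and a median difference of 0.11. The shares over all genes were 0.83% and 0.149%. The count was 1 without MWCNT mice 1 and 5, without MWCNT mouse 2 or without crocidolite mouse 7. Il33 encodes an epithelial alarmin that activates type 2 lymphocytes. It was at 7.16, 7.46 and 8.10 with MWCNT, 8.08, 8.28 and 8.61 with crocidolite, and 7.03, 7.23 and 7.92 with DM. All but 1 crocidolite mouse were above every MWCNT mouse, and the difference was 0.78 ± 0.15 (adjusted p = 0.000921). Retnla, a resistin-like gene of alternatively activated macrophages and epithelium, was at 9.28, 9.53 and 10.21 with MWCNT, 10.54, 10.84 and 11.24 with crocidolite, and 6.89, 7.35 and 7.88 with DM. The 3 groups were separate. The fibres differed by 1.23 ± 0.32 (adjusted p = 0.0241), and each exceeded DM, by 2.26 with MWCNT and 3.49 with crocidolite (adjusted p = 1.3e-07 and 1.9e-16). Il13ra1, for a chain of the IL-13 receptor, differed by 0.41 ± 0.11 (adjusted p = 0.0224). Without MWCNT mice 1 and 5, Retnla and Il13ra1 missed the threshold (adjusted p = 0.0514 and 0.0655), and Il33 passed (adjusted p = 0.00491).

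Chil4 encodes a chitinase-like protein. It was at 2.22, 3.15 and 3.99 with MWCNT, 4.80, 5.70 and 6.62 with crocidolite, and 1.84, 2.25 and 4.13 with DM. The fibres did not overlap and differed by 2.64 ± 0.60 (adjusted p = 0.00689). Its near copy Chil3 did not pass (0.97 ± 0.28, adjusted p = 0.0574), ran from 8.14 to 11.07 with MWCNT and from 10.19 to 11.04 with crocidolite, and was 0.04 above DM with MWCNT. Whether probes of such close relatives, or of the Clca genes, bind each other's transcripts was not tested. Arg1, the arginase gene of alternatively activated macrophages, differed by 0.20, with a 95% interval from -0.47 to 0.88 (adjusted p = 0.833).

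Several macrophage genes were higher than DM with both fibres and higher still with crocidolite. Of 19 measured genes of macrophage proteases and lipid-laden macrophages, 6 were higher with crocidolite and 0 with MWCNT, with a median difference of 0.58. Of 19 lysosomal genes, 8 were higher with crocidolite and 0 with MWCNT, with a median of 0.32. For both lists, the shares over all genes were 0.83% with crocidolite and 0.149% with MWCNT. The mean log2 level of the lysosomal list met at a single value, 9.24 at the highest with MWCNT and at the lowest with crocidolite. These counts were 2 and 1 without MWCNT mice 1 and 5, while the medians were then 0.62 and 0.30. The macrophage count was also 1 without MWCNT mouse 2 or 6, 2 without crocidolite mouse 2 or 5, and 3 without MWCNT mouse 1, 4 or 7 or crocidolite mouse 6. The lysosomal count was 4 without MWCNT mouse 2 or crocidolite mouse 2, and 5 without MWCNT mouse 6 or crocidolite mouse 4, 5 or 7. In bulk tissue, more cells of a type and more RNA per cell cannot be told apart.

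Gpnmb, a glycoprotein gene of lipid- and particle-laden macrophages, was at 8.08, 8.24 and 9.33 with MWCNT, 9.14, 9.54 and 10.54 with crocidolite, and 5.98, 6.24 and 6.40 with DM. Both exposed groups were clear of DM, and 6 of 7 crocidolite mice were above all MWCNT mice. The difference between fibres was 1.18 ± 0.33 (adjusted p = 0.0473), close to the threshold and past it in 12 of 28 settings. Atp6v0d2, for a subunit of the proton pump that acidifies lysosomes, had medians of 7.82 with MWCNT and 8.97 with crocidolite and differed by 1.05 ± 0.25 (adjusted p = 0.0115). MWCNT mouse 8, at 9.02, was the one in the crocidolite range. Ctsk, the cathepsin K gene, had medians of 7.46 and 8.46 and differed by 0.99 ± 0.27 (adjusted p = 0.0388). Npc2, for a carrier of cholesterol out of lysosomes, and Lipa, the lysosomal acid lipase gene, differed by 0.42 ± 0.08 and 0.58 ± 0.14 (adjusted p = 0.000694 and 0.0124).

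Of 14 monocyte and interstitial macrophage genes, 3 were higher with crocidolite and 0 with MWCNT, against 0.83% and 0.149% of all genes. The median of the list was 0.10. The count was 1 without MWCNT mice 1 and 5, without MWCNT mouse 2 or 5, or without crocidolite mouse 2 or 6. Cd14, the co-receptor for lipopolysaccharide, was at 5.93, 6.44 and 7.35 with MWCNT and 7.07, 7.24 and 7.56 with crocidolite, with MWCNT mouse 8 again at the top of its group. The difference was 0.79 ± 0.18 (adjusted p = 0.00637). Clec7a, for the beta-glucan receptor dectin-1, and Olr1, for the oxidised LDL receptor, were chosen after their values were seen. They differed by 1.00 ± 0.23 and 0.99 ± 0.22 (adjusted p = 0.00997 and 0.00634). Msr1, a scavenger receptor gene chosen likewise, differed by 0.85 ± 0.23 (adjusted p = 0.0413), past the test in 12 of 28 settings, and Fcgr4, an activating antibody receptor gene, by 0.91 ± 0.23 (adjusted p = 0.0197). Mmp12, the macrophage elastase gene, ran from 7.73 to 8.64 with MWCNT, from 8.63 to 9.92 with crocidolite and from 4.90 to 5.52 with DM. Its difference of 0.95 ± 0.36 did not pass (adjusted p = 0.226), although 6 of 7 crocidolite mice were above all MWCNT mice. Trem2, a lipid-sensing receptor gene, differed by 0.80 ± 0.25 and did not pass either (adjusted p = 0.104).

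Some chemokine genes were higher with crocidolite. Of 15 CC chemokine genes, 2 were higher with crocidolite, and of 13 CXC chemokine genes, 2; none of them was higher with MWCNT. Over all genes, 0.83% were higher with crocidolite. The CC count was 1 without MWCNT mice 1 and 5, where Ccl3 did not pass (adjusted p = 0.15), and 1 when any of 10 of the 15 mice was left out singly. The CXC count was 1 without crocidolite mouse 5 or 6. Ccl8, which attracts monocytes and type 2 lymphocytes, was at 3.86, 4.36 and 5.05 with MWCNT and 4.81, 5.55 and 6.34 with crocidolite, a difference of 1.15 ± 0.26 (adjusted p = 0.00638). The groups met in 1 crocidolite mouse. Cxcl17, a mucosal chemokine gene, differed by 0.82 ± 0.15 (adjusted p = 0.00024). Cxcl9, induced by interferon-gamma, differed by 1.31 ± 0.29 (adjusted p = 0.00605), with crocidolite mice spread from 4.76 to 8.36. Il1a, the alarmin cytokine, differed by 0.65 ± 0.17 (adjusted p = 0.0358). Ccl2, a monocyte chemokine gene, and Cxcl5, a neutrophil chemokine gene, did not pass (adjusted p = 0.206 and 0.562).

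Of 15 neutrophil genes, 1 passed, Cd177, a surface glycoprotein that also marks airway epithelium, at 6.58, 7.44 and 8.92 with MWCNT and 8.05, 8.58 and 9.08 with crocidolite (difference 1.16 ± 0.24, adjusted p = 0.00201). The median of the neutrophil list was -0.12. Cxcr1, a chemokine receptor gene chosen after its values were seen, was not among these 15. It was called too, 1.14 higher with crocidolite, and passed in 22 of 28 settings. Of 14 plasma cell and antibody transport genes, 2 were higher with crocidolite, Mzb1, a chaperone of antibody secretion, by 0.75 ± 0.20 (adjusted p = 0.0249), and Sdc1, the syndecan that marks plasma cells and epithelium, by 0.45 ± 0.11 (adjusted p = 0.0197). Neither passed without MWCNT mice 1 and 5, without MWCNT mouse 2, or without crocidolite mouse 2 or 4. Jchain, which joins secreted antibody units, differed by 1.12 ± 0.48 (adjusted p = 0.286). Of 15 T cell genes 1 passed, Il7r, and of 16 B cell and 14 NK cell genes 0. Beside all counts of this paragraph, 0.83% of all genes were higher with crocidolite and 0.978% passed in either direction. Among 24 cell cycle genes all group means were higher with crocidolite, with a median of 0.27, but 1 passed, Bub1b, a spindle checkpoint gene (0.44 ± 0.12, adjusted p = 0.0437).

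In the alveolar epithelium, 4 of 16 type 2 cell genes were higher with crocidolite and 0 with MWCNT (median 0.26), against 0.83% and 0.149% of all genes. Scd1, the fatty acid desaturase used in surfactant lipid synthesis, was at 10.74, 11.01 and 11.34 with MWCNT, 11.36, 11.56 and 11.66 with crocidolite, and 10.52, 10.85 and 11.33 with DM. The fibres did not overlap, and the difference was 0.51 ± 0.11 (adjusted p = 0.00352). Muc1, Lamp3, a lamellar body membrane gene, and Hc, which encodes complement C5, differed by 0.42, 0.42 and 0.37 (adjusted p = 0.0137, 0.0197 and 0.00201). Sftpc differed by 0.09, with a 95% interval from -0.01 to 0.18. Without MWCNT mice 1 and 5, 1 of the 16 passed, and 2 without MWCNT mouse 2 or 5 alone. A fit of the groups compared alone called 0 of the 16.

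Mfsd2a and Aqp4 were chosen after their values were seen, for the size of their differences. Mfsd2a, a carrier of lysophospholipids in type 2 cells, was at 5.92, 6.60 and 7.08 with MWCNT, 7.22, 8.15 and 8.35 with crocidolite, and 5.90, 6.04 and 6.47 with DM, a difference of 1.34 ± 0.20 (adjusted p = 6.12e-07). Aqp4, a water channel gene, was at 5.46, 6.16 and 6.55 with MWCNT and 6.76, 7.27 and 7.75 with crocidolite, a difference of 1.20 ± 0.16 (adjusted p = 1.8e-08). In both, all crocidolite mice lay above all MWCNT mice. Among basal and transitional epithelial genes, 1 of 17 passed, where 0.978% of all genes did: Trp63, the p63 transcription factor of basal cells, by 0.66 ± 0.17 (adjusted p = 0.0195). Serpinb5, a serpin gene of stratified epithelium, had medians of 3.20 with MWCNT and 5.27 with crocidolite and differed by 1.64 ± 0.40 (adjusted p = 0.0142). Its MWCNT range of 2.71 to 6.12 includes the mice with squamous keratins, and without them its difference was 2.30 ± 0.40.

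Other genes among the 15 with the largest differences have no group in common. Cdhr1, a cadherin gene best known from photoreceptors, was at 3.44, 3.96 and 4.68 with MWCNT, 5.25, 5.80 and 6.14 with crocidolite, and 2.77, 3.04 and 3.34 with DM, so that the 3 groups were separate. It differed by 1.80 ± 0.20 (adjusted p = 5.16e-11). Npy, for neuropeptide Y, had medians of 4.75 and 6.36 and differed by 1.62 ± 0.32 (adjusted p = 0.000921). H2-M2, a non-classical MHC class I gene, differed by 1.47 ± 0.27 (adjusted p = 0.00024), and Awat1, a wax ester synthesis gene, by 1.89 ± 0.31 (adjusted p = 1.58e-05). Npy and H2-M2 had no overlap between fibres. Hmox1, the haem oxygenase gene, and Gclc, for glutathione synthesis, were the 2 of 17 oxidative stress genes that passed, by 0.64 ± 0.14 and 0.38 ± 0.10 (adjusted p = 0.00637 and 0.0249). Of all genes, 0.978% passed. Gclc did not pass without MWCNT mice 1 and 5 (adjusted p = 0.105).

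For genes of scar formation, where the share called over all genes was 0.978%, the counts were 0. Of 20 matrix and collagen genes, 0 passed in limma, as did 0 of 21 genes of TGF-beta and profibrotic signalling and 0 of 16 fibroblast and myofibroblast genes. Their medians were -0.04, 0.06 and -0.26. Col1a1 ran from 7.63 to 8.99 with MWCNT, from 7.00 to 8.25 with crocidolite and from 7.20 to 8.60 with DM, and Col3a1 from 7.62 to 8.95, 7.38 to 8.47 and 7.46 to 8.47. The groups overlapped for both collagens. The 95% intervals of the difference were -0.62 to 0.07 for Col1a1 and -0.37 to 0.23 for Col3a1. Mmp13, a collagenase, and Adam8, a macrophage sheddase, were the 2 of 21 matrix protease and inhibitor genes that passed, by 0.89 ± 0.23 and 0.59 ± 0.16 (adjusted p = 0.027 and 0.0291). Neither passed without MWCNT mice 1 and 5 (adjusted p = 0.087 and 0.0538), without MWCNT mouse 2 or 5, or without crocidolite mouse 2 or 6. Timp1, a metalloproteinase inhibitor gene, differed by 0.21, with a 95% interval from -0.20 to 0.62.

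**Figure D3:**
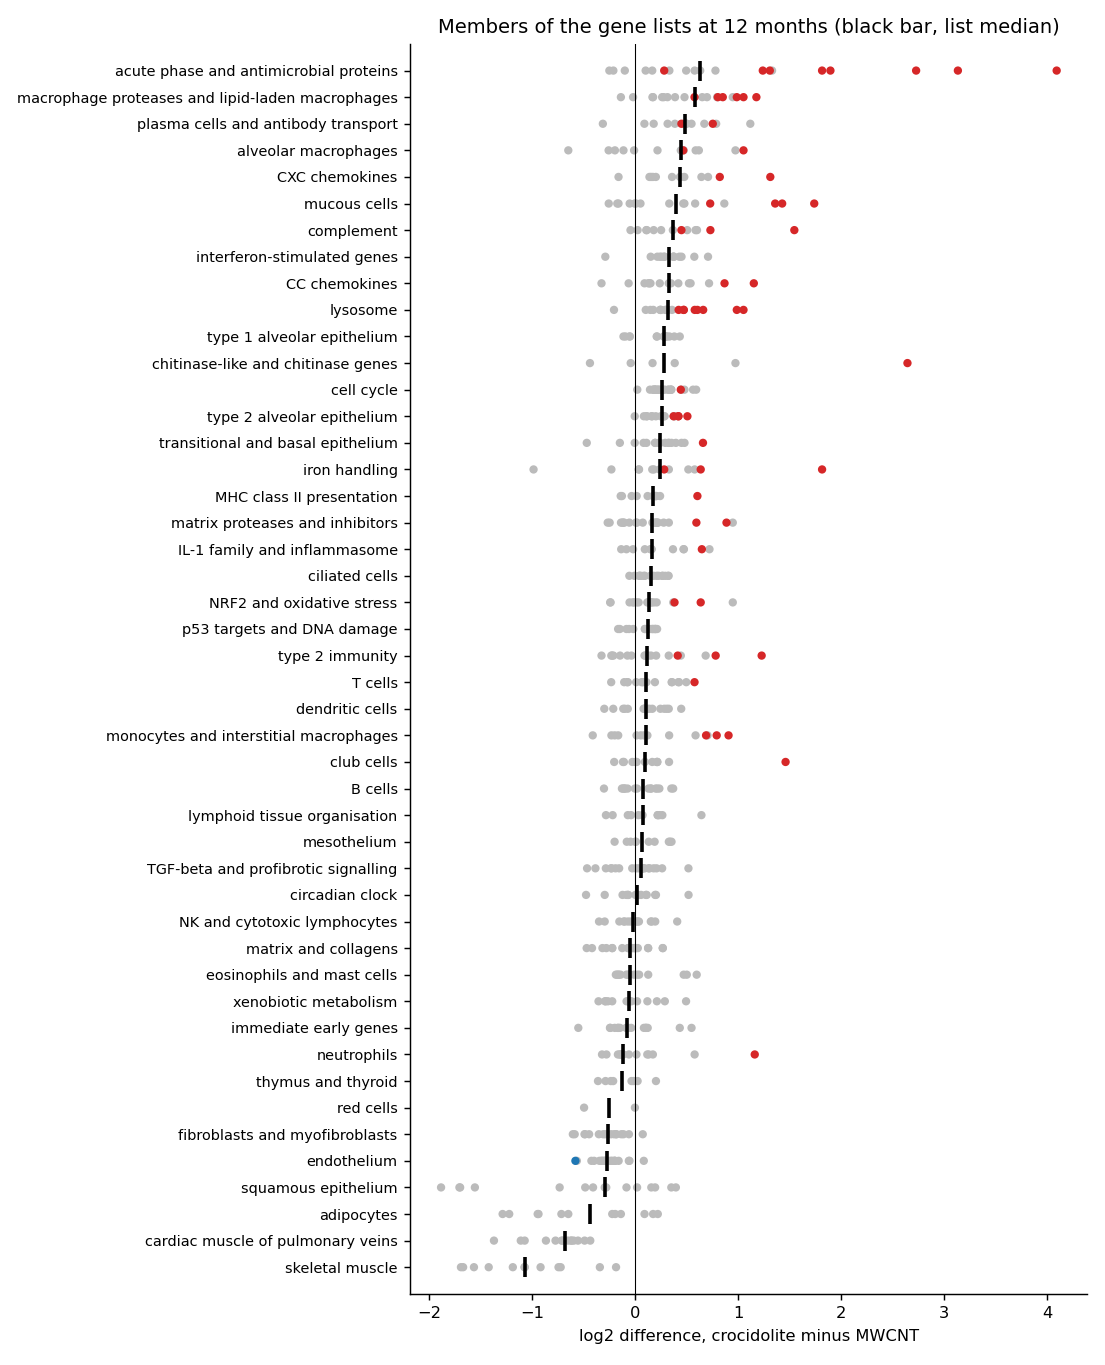
Each point is a measured gene of a list; the x axis is its log2 difference at 12 months, crocidolite minus MWCNT, with lists ordered by their median (black bars). Red points were higher with crocidolite, the blue point, Ednrb, was higher with MWCNT, and grey points did not pass; the acute-phase list has the highest median, 0.63, and skeletal muscle, which rests on MWCNT mice 1 and 5, the lowest, -1.07, which was -0.19 without them.

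The 33 genes higher with MWCNT differed by smaller amounts, and for 11 of them the mean was under 4 on the log2 scale in both groups. In this direction 18 genes were called without MWCNT mice 1 and 5. Ccn3, a matricellular protein gene, was at 5.48, 5.97 and 6.37 with MWCNT, 4.87, 5.28 and 5.53 with crocidolite, and 5.32, 5.86 and 6.09 with DM. The MWCNT mice were in the range of DM or just above it, and 6 of 7 crocidolite mice were below all MWCNT mice. The difference was -0.68 ± 0.14 (adjusted p = 0.00188), and the call held in 26 of 28 settings. Gnao1, a G-protein subunit gene of nerve and endocrine cells, was at 6.78, 7.12 and 7.61 with MWCNT, 6.08, 6.52 and 6.80 with crocidolite, and 6.84, 7.27 and 7.57 with DM. Again the crocidolite mice were the low ones; the difference was -0.63 ± 0.15 (adjusted p = 0.00848). Gria1, a glutamate receptor subunit gene, Dpysl5, a gene of axon growth, and Pcbp3, an RNA-binding protein gene, had differences of -0.68, -0.64 and -0.63 (adjusted p = 0.013, 0.00748 and 0.0178). Pcbp3 was lower in every crocidolite mouse than in any MWCNT mouse.

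Kcna1, a potassium channel gene, had a weaker signal, at 2.59, 2.88 and 4.67 with MWCNT, 2.04, 2.34 and 2.73 with crocidolite, and 2.04, 3.02 and 3.58 with DM. Its difference was -0.87 ± 0.23 (adjusted p = 0.0323), and it passed in 13 of 27 settings. Vwa5b1, Asic1, Rtp2, Barhl1, Pak7 and Mroh3 likewise had medians under 4 in both groups, with differences between -0.71 and -0.60. Without MWCNT mice 1 and 5, Kcna1, Vwa5b1 and Barhl1 did not pass (adjusted p = 0.141, 0.0688 and 0.0662), while Asic1, Rtp2, Pak7 and Mroh3 did. Gstm6, a glutathione transferase gene, differed by -0.68 ± 0.14 (adjusted p = 0.00171).

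Of 20 measured endothelial genes, 1 was higher with MWCNT, Ednrb, the endothelin B receptor gene, and the list's median difference was -0.27; over all genes, 0.149% were higher with MWCNT. The count was 0 without MWCNT mice 1 and 5 (adjusted p = 0.107 for Ednrb), and also without MWCNT mouse 1, 3 or 7 or crocidolite mouse 2, 6 or 7. Ednrb was at 8.66, 8.97 and 9.41 with MWCNT, 7.99, 8.58 and 9.02 with crocidolite, and 8.75, 9.25 and 9.50 with DM, a difference of -0.58 ± 0.15 (adjusted p = 0.0342). It was below DM with crocidolite by 0.75 (adjusted p = 0.00027), and its difference from DM with MWCNT did not pass (adjusted p = 0.72). Arap3, an endothelial signalling gene, and Thbd, for thrombomodulin, which turns thrombin towards anticoagulation, were chosen after their values were seen. They differed by -0.53 ± 0.13 and -0.42 ± 0.12 (adjusted p = 0.0196 and 0.0487). Popdc2, a heart muscle membrane gene, differed by -0.73 ± 0.19 (adjusted p = 0.0247). Without MWCNT mice 1 and 5, Arap3, Thbd and Popdc2 did not pass (adjusted p = 0.0522, 0.0581 and 0.176). The heart muscle genes of pulmonary veins, of which 0 of 14 passed, had a mean log2 level of 6.33 to 8.74 with MWCNT, 5.77 to 6.78 with crocidolite and 6.85 to 8.31 with DM; their part in these differences was not tested.

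Between all 22180 genes, 60 had every crocidolite mouse above every MWCNT mouse (0.271%) and 14 the reverse (0.0631%). Of the called genes, 50 and 3 were separate in this way. The median over those 50 genes of the log2 value minus the DM mean was 1.16 to 1.53 in the crocidolite mice, 0.01 to 0.63 in the MWCNT mice and -0.21 to 0.21 in the DM mice. The first gap is fixed by how the 50 genes were picked, since they do not overlap between the fibres. MWCNT mouse 8 was the highest of its group and mouse 2 the lowest.

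**Figure D4:**
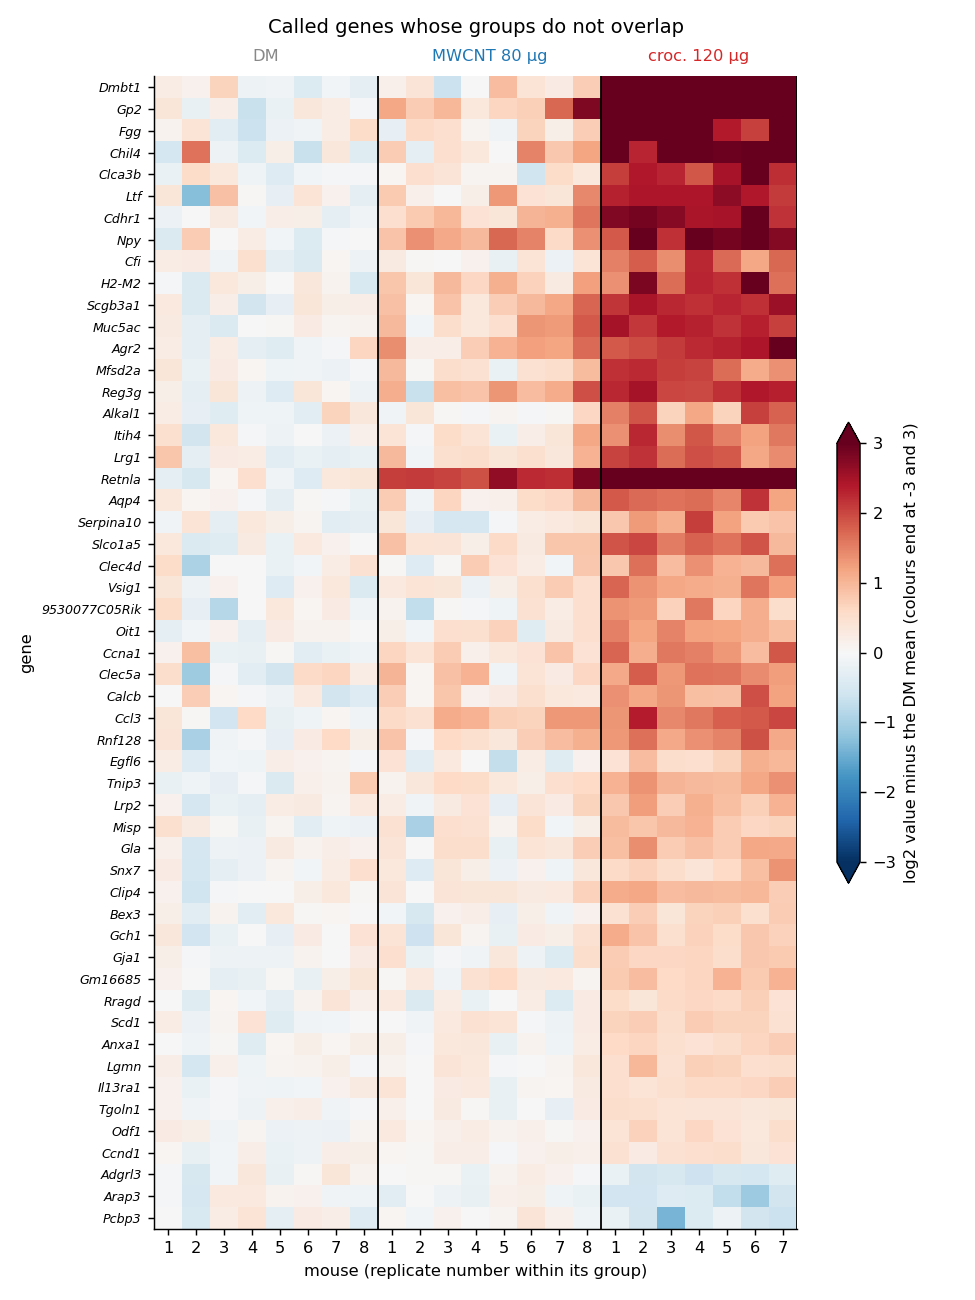
Colours give the log2 value minus the DM mean at 12 months for the called genes whose exposed groups do not overlap (50 higher with crocidolite and 3 with MWCNT), a column for each mouse, ordered by the difference between fibres. The crocidolite columns are red in the upper 50 genes, the MWCNT columns are paler with mouse 8 the darkest, and Retnla stands out as high in both exposed groups.

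Against DM at 12 months, 35 genes were higher with MWCNT (0.158%) and 4 lower (0.018%), and 955 were higher with crocidolite (4.31%) and 479 lower (2.16%). These comparisons share their control mice, and they share the exposed mice with the comparison between fibres. For Dmbt1, Fgg, Fga and Cfi the difference from DM was 0.28, 0.30, 0.29 and 0.11 with MWCNT and 4.36, 3.02, 2.19 and 1.65 with crocidolite. For Gpnmb, Retnla, Mmp12 and Clca1 it was 2.30, 2.26, 2.89 and 4.70 with MWCNT and 3.47, 3.49, 3.83 and 4.70 with crocidolite. The first set was thus near DM with nanotubes, and the second was raised by both materials.

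Earlier times gave fewer differences. At 1 month (8 MWCNT and 5 crocidolite mice), 20 genes differed (0.0902%), 12 of them higher with crocidolite, and at 6 months (8 and 8 mice) 6 genes (0.0271%), all higher with crocidolite. Dmbt1 was higher with crocidolite by 2.57 at 1 month and 3.24 at 6 months, Gp2 by 1.54 and 2.14, Clca3b by 1.63 and 1.38, and Cdhr1 by 1.37 and 1.29, all of which passed. Fgg differed by 0.61 and 0.86, and Fga by -0.02 and 0.42, none of which passed (adjusted p = 0.54 and 0.96 for Fgg, 0.99 and 0.96 for Fga). Ednrb and Gria1 were higher with MWCNT at 1 month (differences -0.72 and -0.81, adjusted p = 0.049 and 0.033). No gene passed the limma test of a change in the difference from 1 to 12 months (0 genes, smallest adjusted p = 0.194) or from 6 to 12 months (0 genes, smallest adjusted p = 0.319). At an unadjusted p under 0.05 these tests gave 2572 and 2222 genes, where 1109 would be 5% of the genes. From 1 to 12 months the difference, MWCNT minus crocidolite, changed by -2.11 ± 0.47 for Fgg and -1.92 ± 0.49 for Fga (adjusted p = 0.194 each). From 6 to 12 months it changed by -1.87 ± 0.44 and -1.48 ± 0.46 (adjusted p = 0.319 and 0.332). Both genes were named for their size at 12 months. The larger differences of Fgg and Fga at 12 months are therefore not shown to be a change with time.

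**Figure D5:**
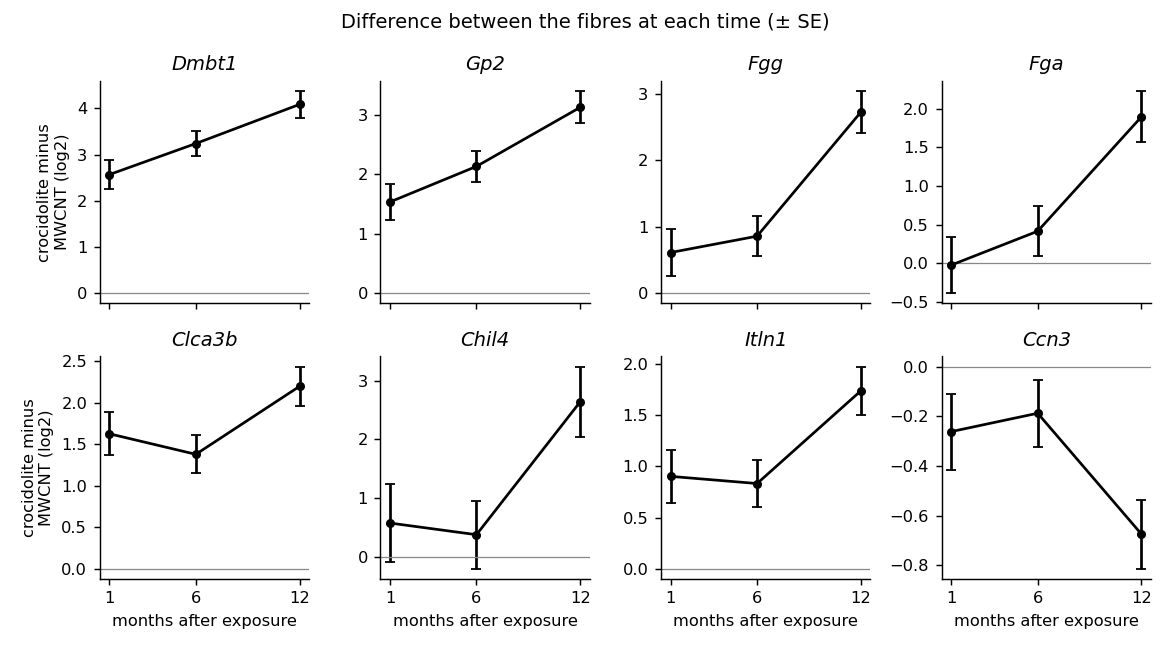
Log2 difference between the fibres (crocidolite minus MWCNT, ± SE of the limma contrast) at 1, 6 and 12 months for 8 genes; each panel has its own y axis and the grey line marks 0. Dmbt1, Gp2 and Clca3b are above 0 at all 3 times, while Fgg and Fga are at 2.73 and 1.90 at 12 months and under 0.9 before.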

How the data were processed

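Lung RNA was measured on Affymetrix arrays. The values deposited by the authors are log2 expression. The submitters' processing notes, per the labels, name RMA, oligo and limma but no version, role or genome build. RMA normalizes arrays to each other, so a shift of most genes would not be seen. Of 41345 features, 23521 had a single symbol in the platform annotation, and the feature with the highest mean was kept for each of 22180 genes. The 2 arrays of a mouse of another group were averaged. With limma (3.58.1, R 4.3.3), group means over the 138 mice and 18 groups were fitted, leaving 120 residual degrees of freedom, and moderated by empirical Bayes; every adjusted p is from its two-sided test, with Benjamini-Hochberg adjustment over all genes. On simulated data, 64% of 100 genes set to differ 1.5-fold between these groups were found, and 91% of 100 set to differ 2-fold, with 12 false calls among 22180 genes. The simulated noise was independent between genes, with a single spread per gene in all groups and no mice that stood apart. These rates need not hold for the real calls. No array depth exists; the number of mice limits the precision.

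The members, the 46 gene lists (681 of 751 members measured, 630 genes) and the tests were chosen with earlier results of these data known. Genes named are the 15 highest and 15 lowest called differences, passing over predicted genes and olfactory receptors, the 2 largest called per list, and a set panel of genes. Others were chosen after their values were seen, as the text says or as holds for Alb, Reg3g, Agr2, C6, Lamp3, Hc, Npc2, Lipa and Il13ra1. Alternatives were other scalings and summaries, filters, moderation, array weights, subsets of arrays and leaving out each mouse. Figures were drawn with matplotlib 3.10.9.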

Additional observations from a re-analysis of the deposited data

Results flagged for a closer look

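Among 216 pairs of a named gene and an exposed group at 12 months, 25 held a mouse whose gap to the nearest other mouse was large against the whole range of its group (Dixon's criterion, 95%). Chance gives this in about 1 in 20 groups.

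MWCNT mouse 8 was the highest of its group and set apart from it for Itln1 (4.54), Atp6v0d2 (9.02), Ctsk (8.10), Cd14 (7.35), Cd177 (8.92), Saa3 (7.31), Timp1 (5.84), Proz (6.01) and Cxcr1 (6.62), a chemokine receptor gene chosen after its values were seen. These genes span epithelium, macrophages and, with Cd177, the neutrophil list. MWCNT mouse 6 was set apart for Alb (8.40), Fgb (3.80) and Cd3d (4.82), a T cell receptor complex gene, all highest, and for Clca3b (2.14), lowest. MWCNT mouse 5, which also carries the squamous and muscle genes, was highest for Col1a1 (8.99) and Col3a1 (8.95), and MWCNT mouse 2 was lowest for Reg3g (6.11).

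With crocidolite, mouse 7 was lowest for Muc5b (8.62) and Adam8 (6.63) and highest for Agr2 (7.37). Crocidolite mouse 6 was highest for Clca3b (6.02), mouse 1 for Serpinb5 (6.01), mouse 2 for Lcn2 (10.74), mouse 4 for Serpina10 (5.55) and mouse 5 for Rtp2 (3.04), and mouse 3 was lowest for Pcbp3 (3.91).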

How the results depend on the processing

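The 217 calls between the fibres became 67 with the groups compared alone, 483 and 71 in arrays without and with the word replacement, 128 without MWCNT mice 1 and 5, 83 at an adjusted p under 0.01 and 39 with a difference of at least 1. Leaving out each mouse gave 108 to 298; MWCNT mouse 2 (108) and crocidolite mice 2 and 6 (133 each) moved the count by over 1.5 times. The remaining alternatives gave between 218 and 310. With the groups compared alone, the lysosomal count became 3, the macrophage protease count 4, and the complement and monocyte counts 1 each. In that fit 0 genes were called in the lists of type 2 alveolar, basal epithelial, neutrophil, T cell, IL-1, oxidative stress, cell cycle and endothelial genes. The acute-phase count was 7 and the mucous cell count 3. Over all genes, 0.302% were called in that fit, so a count of 0 in a short list does not set it apart. The 0 genes whose difference changed from 1 to 12 months became 1 with the groups compared alone, 1 with array weights and 4 without the word replacement; leaving out each mouse gave 0 to 0. From 6 to 12 months the 0 became 2 with array weights and 19 without the word; leaving out each mouse gave 0 to 0. The subset with the word could not be fitted at 6 months, where no crocidolite array carries it. Smaller subsets have fewer mice; otherwise the cause was not tested. Dmbt1, Gp2, Fgg, Clca3b, Cdhr1, Cfi, H2-M2, Aqp4 and Gm20016, a predicted gene named here because it completes the 9, passed under every alternative run, and 42 of the 217 passed under all but the subsets by the word. Of the 9, Dmbt1, Clca3b, Cdhr1, Cfi and Gm20016 passed in 27 of 27 settings. They were not tested where genes with a mean under 4 were left out. Of all values of named genes under the alternatives 1 changed sign past its call, Muc5b without the word, at 0.215 (MWCNT minus crocidolite). The median of all genes, MWCNT minus crocidolite, was 0.005 as deposited, 0.003 after quantile normalization and 0.04 after median centring. No paired analysis was possible because the labels give the groups no shared replicate numbers. Genes with means under 4 lie near the lowest signals, where differences may be understated.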

Other observations

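Some cell groups gave low counts with most means on one side. All 14 heart muscle genes, which mark the muscle sleeves of pulmonary veins, had lower means with crocidolite than with MWCNT, with a median difference of -0.68, or -0.42 without MWCNT mice 1 and 5, and 0 passed in limma. For the 14 interferon-stimulated genes 13 means were higher with crocidolite, with a median of 0.33, and 0 passed. For the 17 genes of ciliated cells 15 means were higher, with a median of 0.15, and 0 passed. The 15 squamous epithelium genes had a median of -0.29, which was 0.05 without MWCNT mice 1 and 5. Over all genes, 0.978% passed, so a count of 0 in a list of this size does not set it apart. The median of all genes, crocidolite minus MWCNT, was -0.005. Whether these lists shifted as sets was not tested.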
